A study of Homo sapiens with 18 samples.

Results

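The genes examined here encode 8 regulators of the coactivators YAP and TAZ that sit at cell junctions or on the actin cytoskeleton. They are the 3 angiomotins AMOT, AMOTL1 and AMOTL2, the 3 LIM domain proteins AJUBA, LIMD1 and WTIP, the phosphatase PTPN14 and the kinase NUAK2. The genes were chosen by name, from what their proteins are known to do, and not by a measured value. All 8 were among the 18978 genes of the H1299 table, the 20335 genes of the A549 table and the 17094 genes in both, and all 8 passed the filter on low counts in each line.

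YAP and TAZ have no DNA-binding domain of their own and act on genes through the TEAD transcription factors, while the LATS kinases of the Hippo pathway phosphorylate them and keep them out of the nucleus. Angiomotins and PTPN14 carry PPxY motifs that bind the WW domains of YAP and hold it at junctions or on actin, whereas the Ajuba family of LIM proteins binds LATS kinases and restrains them. NUAK2, a kinase related to AMPK and activated by LKB1, raises actomyosin tension, which favours nuclear YAP, and AMOTL2, PTPN14 and NUAK2 are themselves found in published lists of YAP and TAZ target genes.

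The values are read counts per gene from poly(A) RNA of 2 human non-small cell lung cancer lines, H1299, which lacks p53, and A549, an adenocarcinoma line. In each line the 3 groups were cells given the YAP siRNA pool (siYAP, against YAP1), the TAZ siRNA pool (siTAZ, against WWTR1) or the control pool (siControl). All cells were transfected for 48 h with 30 nM of a SMARTpool, in which several siRNAs against 1 transcript are mixed, and spent the last 18 h of it without serum. H1299 cells grew in RPMI-1640 and A549 cells in DMEM, both with 10% serum, and each of the 6 groups had 3 libraries, 18 in all, made from the poly(A) part of 500 ng of RNA. Each knockdown used 1 pool, so effects of its siRNAs on other transcripts cannot be told apart from the loss of YAP or TAZ. Whether replicates came from separate cultures is not stated, and a p-value here reflects only how far these libraries spread, which may be technical. In bulk RNA, fewer cells that express a gene and less of its RNA per cell cannot be told apart.

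Depth was 16.8 to 20.8 M assigned reads for H1299 libraries, while A549 libraries held 10.7 to 45.0 M. Levels are counts per M reads (CPM, scaled by TMM within each line), given in the order of replicates 1, 2 and 3 where 3 values stand together. YAP1 in siYAP cells stood at 18.0% of its siControl mean in H1299 and at 29.7% in A549, and WWTR1 in siTAZ cells at 19.2% and 32.7%. WWTR1 in the H1299 library siTAZ 2 was 82.7 CPM, against 36.1 and 29.05 CPM in siTAZ 1 and 3 and 257 ± 24.7 CPM in siControl cells (SD, n = 3). WWTR1 in siYAP libraries of H1299 was at 181 ± 19.3 CPM, a log2 change of -0.51 ± 0.26 (SE, adjusted p = 0.204), and of -0.51 ± 0.17 with the replicate number as a block (adjusted p = 0.0398). YAP1 in siTAZ libraries of H1299 was at 101 ± 4.72 CPM, against 81.8 ± 3.37 CPM in siControl, a log2 change of 0.30 ± 0.13 (adjusted p = 0.117) and, with the block, of 0.30 ± 0.10 (adjusted p = 0.0316). The epithelial keratins KRT8 and KRT18 had a lowest value of 140 CPM over the libraries of both lines, whereas CDH1 is not listed in H1299 and KRT19 and EPCAM were below 1 CPM there. KRT8 was higher after siYAP (a log2 change of 0.36 ± 0.11, as for the markers that follow) and KRT18 lower after siTAZ (-0.37 ± 0.10) in H1299, and with the block in A549 KRT8, KRT18 and KRT19 were lower after siYAP (-0.16, -0.22 and -0.13) and after siTAZ (-0.35, -0.54 and -0.24), and CDH1 was higher after siYAP (0.22). Of the lung epithelial markers, SFTPB and SFTPC are listed in neither line and NKX2-1 only in H1299, at up to 1.22 CPM. This list summed to 2.56 to 2.95 CPM in siYAP, 2.11 to 2.54 CPM in siTAZ and 0.955 to 1.32 CPM in siControl libraries of H1299, where NKX2-1 was higher after siYAP (1.47 ± 0.39) and siTAZ (1.42 ± 0.40) and NAPSA after siYAP (1.203 ± 0.28). The 4 leukocyte markers summed to 2.51 to 4.06 CPM in siYAP, 2.404 to 4.77 CPM in siTAZ and 0.929 to 2.89 CPM in siControl libraries of A549, with PTPRC and CD3E not listed in either line, and with the block LYZ was higher there after both knockdowns (1.66 and 2.26) and CD79A after siTAZ (0.54). The 4 endothelial and fibroblast markers summed to 4.96 to 6.94 CPM in siYAP, 4.52 to 6.09 CPM in siTAZ and 2.92 to 3.87 CPM in siControl libraries of H1299, with CDH5 not listed and PDGFRB higher after siYAP (0.98 ± 0.24) and siTAZ (0.80 ± 0.25). The part of these markers in the results was not tested.

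Promoter windows are shown for the 6 genes that were called in a knockdown against siControl with or without the block. They were searched for the hexamer GGAATG, the core of the sequence that TEAD factors are known to bind, and of the paired windows of AMOTL2 and AJUBA the one with a match is shown. RefSeq promoter windows (GRCh38.p14, 250 bases before to 50 bases after an annotated start) were matched for 7 of the 8 genes, 9 windows in all. Lower case is the window on the gene's own strand, 5′ to 3′, and capitals mark GGAATG or, where it lies on the other strand, CATTCC. The windows are chr11:94768106-94768405 (plus strand) for AMOTL1, chr3:134374398-134374697 (minus strand) for AMOTL2, chr14:22976793-22977092 (minus strand) for AJUBA, chr19:34481508-34481807 (plus strand) for WTIP, chr1:214551553-214551852 (minus strand) for PTPN14 and chr1:205321696-205321995 (minus strand) for NUAK2.
AMOTL1: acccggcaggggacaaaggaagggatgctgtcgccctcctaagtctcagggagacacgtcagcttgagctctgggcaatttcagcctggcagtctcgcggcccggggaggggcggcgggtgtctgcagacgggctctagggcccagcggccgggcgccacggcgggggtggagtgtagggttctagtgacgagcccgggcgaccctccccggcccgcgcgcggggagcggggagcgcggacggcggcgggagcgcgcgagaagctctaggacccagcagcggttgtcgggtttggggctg
AMOTL2, second window: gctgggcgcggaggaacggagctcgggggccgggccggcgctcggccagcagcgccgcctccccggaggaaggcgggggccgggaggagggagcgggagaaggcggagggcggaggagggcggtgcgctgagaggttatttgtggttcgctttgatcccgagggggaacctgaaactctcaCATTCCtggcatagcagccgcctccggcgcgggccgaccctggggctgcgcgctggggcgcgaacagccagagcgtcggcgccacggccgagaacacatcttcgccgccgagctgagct
AJUBA, second window: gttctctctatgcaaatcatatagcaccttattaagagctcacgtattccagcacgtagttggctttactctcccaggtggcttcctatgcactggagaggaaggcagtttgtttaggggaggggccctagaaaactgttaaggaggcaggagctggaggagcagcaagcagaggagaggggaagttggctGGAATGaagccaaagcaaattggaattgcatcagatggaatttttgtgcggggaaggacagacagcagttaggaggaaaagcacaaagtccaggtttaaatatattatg
WTIP: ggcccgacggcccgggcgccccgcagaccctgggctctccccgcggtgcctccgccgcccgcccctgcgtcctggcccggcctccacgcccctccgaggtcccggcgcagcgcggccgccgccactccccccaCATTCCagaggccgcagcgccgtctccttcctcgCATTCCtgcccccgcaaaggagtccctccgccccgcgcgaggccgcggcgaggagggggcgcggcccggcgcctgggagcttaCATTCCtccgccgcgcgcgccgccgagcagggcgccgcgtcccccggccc
PTPN14: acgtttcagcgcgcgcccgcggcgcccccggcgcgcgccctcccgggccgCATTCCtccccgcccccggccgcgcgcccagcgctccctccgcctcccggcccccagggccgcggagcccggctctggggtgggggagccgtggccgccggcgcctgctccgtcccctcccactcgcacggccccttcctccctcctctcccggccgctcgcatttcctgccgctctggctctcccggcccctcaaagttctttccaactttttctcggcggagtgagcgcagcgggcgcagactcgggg
NUAK2: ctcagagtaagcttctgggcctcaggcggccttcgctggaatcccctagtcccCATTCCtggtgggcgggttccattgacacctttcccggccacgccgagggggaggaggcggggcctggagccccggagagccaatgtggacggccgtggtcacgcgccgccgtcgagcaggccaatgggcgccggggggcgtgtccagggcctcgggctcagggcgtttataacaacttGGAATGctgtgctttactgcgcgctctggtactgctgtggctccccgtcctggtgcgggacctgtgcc

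GGAATG, searched on both strands, was found in 5 of the 9 windows. WTIP held 3 matches, with first bases at -117, -83 and 0 from the start, NUAK2 held 2, at -197 and -18, AMOTL2 held 1 at -69, AJUBA 1 at -59 and PTPN14 1 at -200. AMOT, AMOTL1 and the first windows of AMOTL2 and AJUBA held none. The AMOTL1 window belongs to a start at 94768356, inside the gene, whose annotation begins at 94706431. No window at that upstream end was searched. The AJUBA match belongs to a start at 22976842, inside the gene and downstream of the start of its first window at 22982551. The AMOTL2 match belongs to a start at 134374447, downstream of the first at 134375417. Over all 35116 promoter windows of the table, 14.0% held at least 1 match, 1.37% at least 2 and 0.128% at least 3. The AP-1 motif TGANTCA, which reads the same on both strands, was in none of the 9 windows, so no match of it overlapped GGAATG, and it was in 7.71% of all windows. A match describes the letters of the window and is not a binding site shown by these data.

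**Figure D1:**
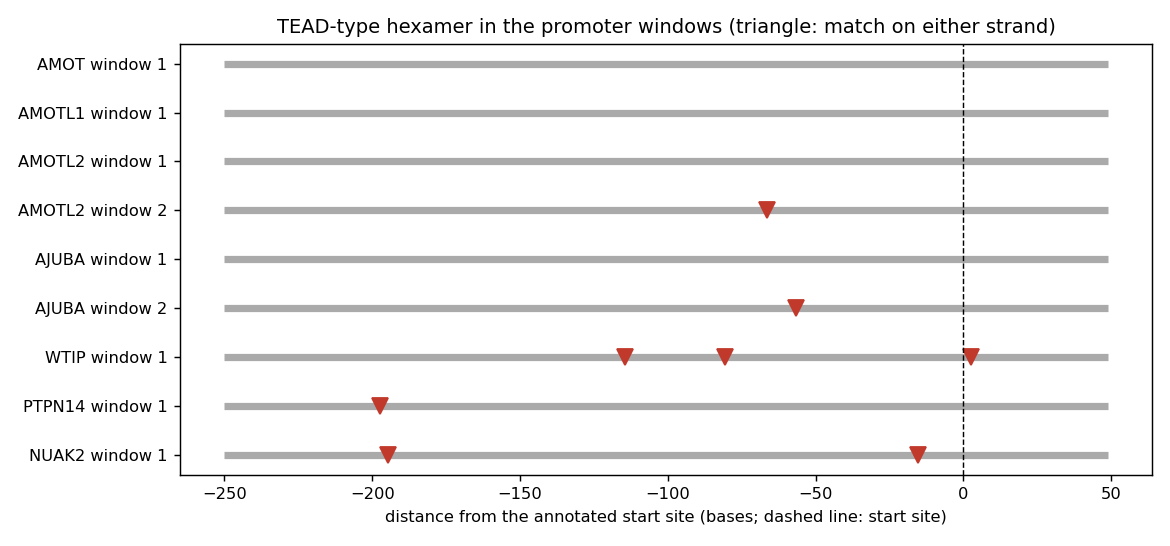
Positions of GGAATG on either strand (triangles, drawn at the middle of the match) in the 9 promoter windows of 7 of the genes, as distance in bases from the annotated start site (dashed line). WTIP has 3 matches and NUAK2 2, and 4 windows have none.

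The lines expressed the 8 genes at different levels. In siControl cells, all 8 differed between H1299 and A549, in a joint fit that called 74.7% of all genes tested. The line, its medium and its experiment cannot be told apart in this comparison. The joint fit scales all 18 libraries together, whereas the CPM levels were scaled within each line, and a log2 ratio of the CPM means of the lines is higher than the joint value by 0.30 to 0.33 for these genes. AMOT was the most unequal, at 28.6 to 34.9 CPM in the 9 H1299 libraries and no higher than 2.27 CPM in the 9 A549 libraries, and its log2 difference, H1299 siControl over A549 siControl, was 4.0 ± 0.26 (SE). PTPN14 was higher in H1299 siControl cells by 1.5 ± 0.15 and AMOTL2 by 0.64 ± 0.14 on the log2 scale. AJUBA had a log2 difference of -2.52 ± 0.19 and NUAK2 of -2.47 ± 0.22, both lower in H1299, followed by WTIP at -1.25 ± 0.29, LIMD1 at -0.81 ± 0.11 and AMOTL1 at -0.43 ± 0.11. On the CPM scale the siControl libraries of AMOTL1 overlapped between the lines, at means of 72.0 CPM in H1299 and 77.95 CPM in A549 and a log2 ratio of -0.12.

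Per kb of merged exons, the order of the genes also differed. In H1299 siControl cells AMOTL2 led with 16.6 ± 1.73 CPM per kb, ahead of AMOTL1 with 7.17 ± 0.83, PTPN14 with 5.54 ± 0.55, AMOT with 3.39 ± 0.02, LIMD1 with 3.29 ± 0.27, AJUBA with 2.55 ± 0.28, NUAK2 with 2.09 ± 0.20 and WTIP with 0.64 ± 0.15 (SD, n = 3). In A549 siControl cells AJUBA led with 11.8 ± 1.95 CPM per kb, ahead of NUAK2 with 9.32 ± 1.26, AMOTL2 with 8.53 ± 0.30, AMOTL1 with 7.77 ± 0.80, LIMD1 with 4.62 ± 0.37, PTPN14 with 1.57 ± 0.12, WTIP with 1.24 ± 0.31 and AMOT with 0.17 ± 0.07. The merged exons ran from 3.44 kb for NUAK2 to 18.8 kb for PTPN14, and a gene that uses a shorter isoform has its level per kb understated.

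**Figure D2:**
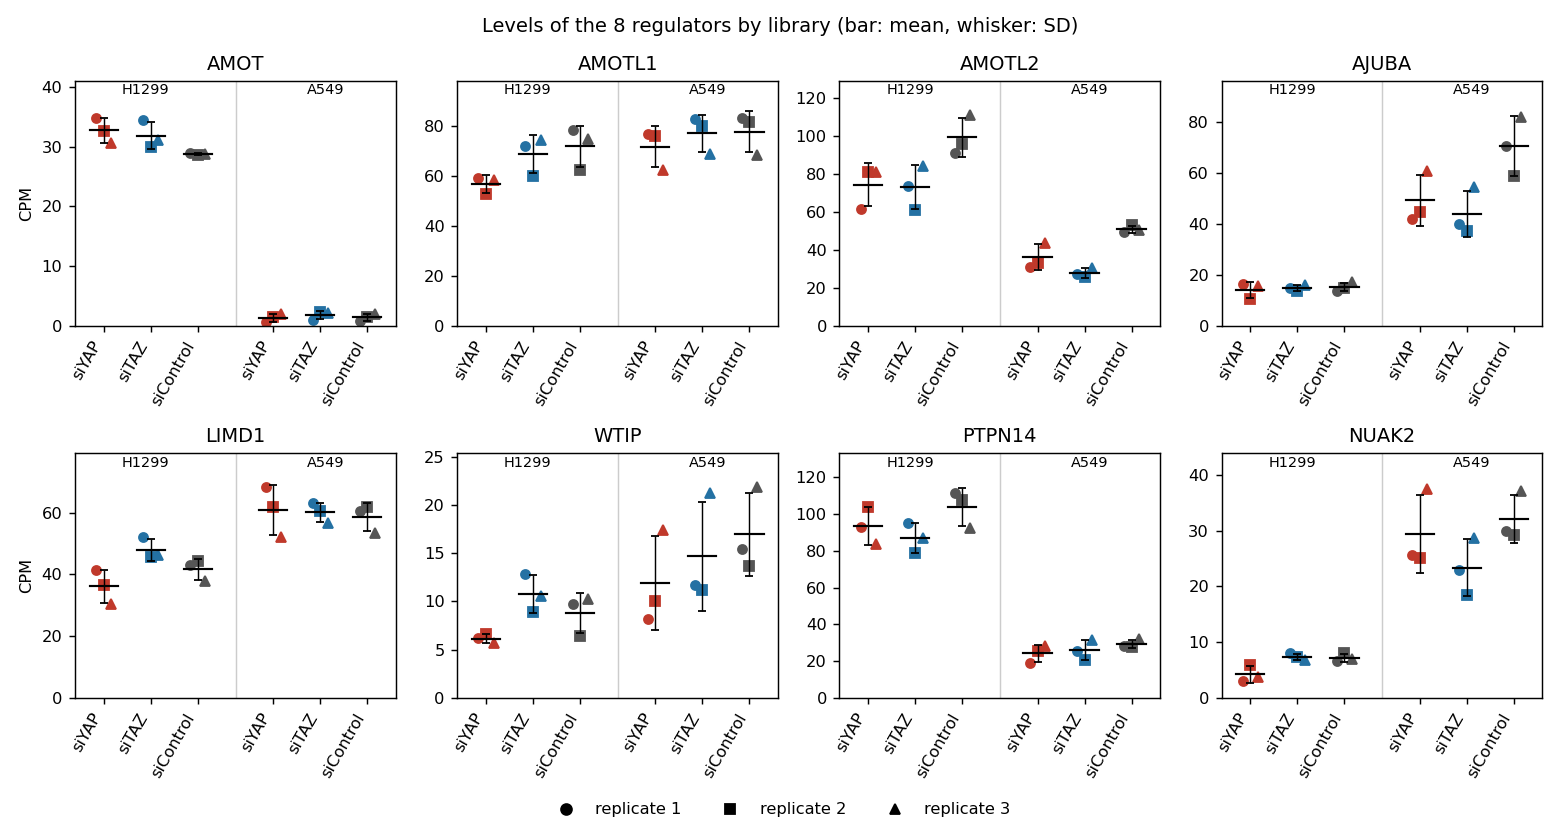
Level of each of the 8 genes in CPM (y axis) in each of the 18 libraries, by line and siRNA (x axis), with marker shape giving the replicate number, the bar the mean of 3 libraries and the whisker the SD. AMOT is near 0 in all A549 libraries, and AMOTL2 libraries of both knockdowns lie below the siControl libraries in both lines.

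Some of these genes were called lower after a knockdown, and AMOTL2 was called lower in the most comparisons with siControl. In H1299, siYAP lowered AMOTL1, AMOTL2 and NUAK2, 3 of the 8 genes, in a comparison that called 16.6% of all genes and 8.75% as lower. siTAZ lowered AMOTL2 alone in H1299, where 23.3% of all genes were called and 12.4% as lower. This count, 1 of 8, is near the lower share of all genes. No gene of the 8 was called higher in any knockdown against siControl, with or without the block on replicate number. The share of all genes called in H1299 moved with the libraries fitted. After siYAP it was 6.97% without siControl 1, 9.72% without siControl 3, 7.03% without siYAP 1 and 7.11% without siYAP 3, and after siTAZ 11.3% without siControl 1 and 10.7% without siTAZ 3. Members' median log2 change in H1299 was -0.27 after siYAP, against 0.01 over all genes tested, and -0.01 after siTAZ, against 0.01 over all genes. With the block, which called 28.3% of all genes after siYAP (14.7% lower) and 35.5% after siTAZ (18.9% lower) in H1299, WTIP joined the genes lowered by siYAP and PTPN14 joined AMOTL2 after siTAZ.

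In A549 the libraries differed by replicate number, and the fit without the block called 0 of the 8 genes after either knockdown, where it called 0.00625% of all genes, which is the targeted gene alone in each case. At an unadjusted p below 0.05, 2 of the 8 genes passed after siYAP and 3 after siTAZ. Over all 16008 genes, 410 and 701 passed. DESeq2 called 0 and 1 of the 8, against 0.0375% and 0.325% of all genes. With the block, which called 5.68% of all genes after siYAP and 13.3% after siTAZ, 3 of the 8 genes were lower after siYAP (AMOTL2, AJUBA and WTIP) and 3 after siTAZ (AMOTL2, AJUBA and NUAK2). The lower calls of that fit made up 3.17% and 6.12% of all genes. Members' median log2 change with the block was -0.19 after siYAP and -0.21 after siTAZ, against 0.00375 and 0.0028 over all genes. Both knockdowns of a line are set against the same 3 siControl libraries.

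**Figure D3:**
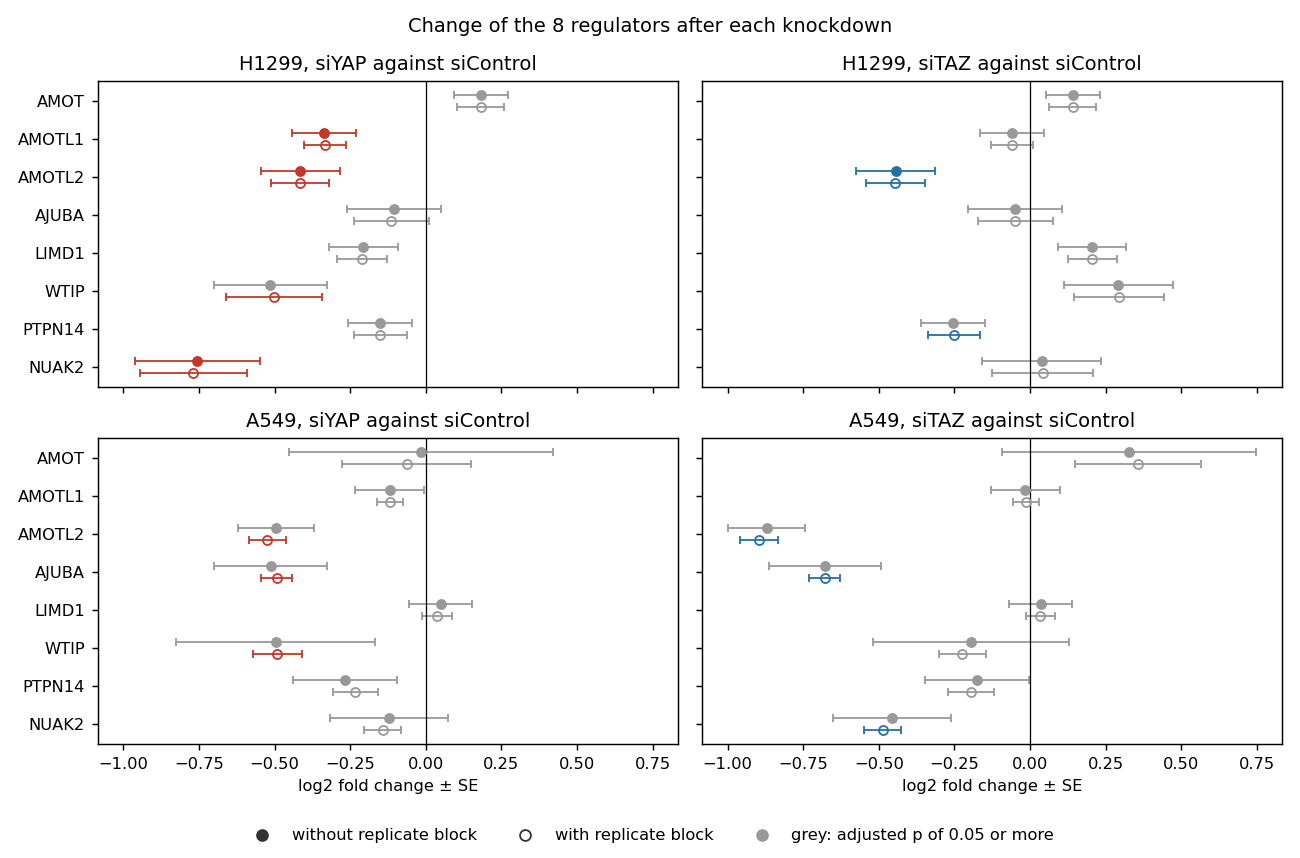
Log2 fold change ± SE (x axis) of the 8 genes (y axis) after siYAP (left) and siTAZ (right) in H1299 (top) and A549 (bottom), with filled points from the fit without and open points from the fit with the block on replicate number. Coloured points have an adjusted p below 0.05, and AMOTL2 is coloured in all 4 panels, in A549 only as the open point.

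AMOTL2, an angiomotin that binds YAP and links cadherin junctions to actin, was lower after both knockdowns in H1299 and, with the block, in A549. Its level in H1299 was 61.6, 81.2 and 81.1 CPM in siYAP, 73.7, 61.3 and 84.4 CPM in siTAZ and 91.2, 96.1 and 111 CPM in siControl libraries. All 6 knockdown libraries lay below all 3 siControl libraries, and the siYAP and siTAZ libraries overlapped each other. Its log2 change was -0.41 ± 0.13 after siYAP (adjusted p = 0.0444) and -0.44 ± 0.13 after siTAZ (adjusted p = 0.0262).

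In A549, AMOTL2 stood at 31.3, 33.3 and 44.0 CPM in siYAP, 27.4, 25.6 and 30.8 CPM in siTAZ and 49.6, 53.1 and 50.5 CPM in siControl libraries. Here the 3 groups did not overlap, with siTAZ lowest, siYAP between and siControl highest. The log2 change was -0.49 ± 0.13 after siYAP and -0.87 ± 0.13 after siTAZ without the block (adjusted p = 1.0 and 0.144), and -0.52 ± 0.06 and -0.90 ± 0.06 with it (adjusted p = 5.1e-07 and 8.57e-13). The gene lies at chr3:134355874-134375479 (minus strand, GRCh38), and its annotation overlaps a ribosomal protein pseudogene and a microRNA on the same strand.

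The H1299 changes of AMOTL2 stayed negative with any 1 library left out, but the calls did not all hold. The siYAP call was lost without siControl 1 (log2 change -0.48), siControl 2 (-0.44), siControl 3 (-0.34), siYAP 1 (-0.31) or siYAP 3 (-0.47), and the siTAZ call without siControl 3 (-0.36), siTAZ 1 (-0.45) or siTAZ 2 (-0.32). In A549 the siTAZ comparison without the block passed when siYAP 3 was left out (-0.88), a library that enters only through the shared spread. In the authors' deposited table, AMOTL2 had adjusted p-values below 0.05 in all 4 knockdowns, with log2 changes of -0.43 and -0.45 in H1299 and -0.52 and -0.89 in A549 for siYAP and siTAZ.

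AMOTL1, the second YAP-binding angiomotin, fell after siYAP in H1299. It stood at 59.2, 52.96 and 58.7 CPM in siYAP, 72.3, 60.3 and 74.6 CPM in siTAZ and 78.4, 62.6 and 74.9 CPM in siControl libraries. The siYAP libraries were below all libraries of the other groups, which overlapped each other. The log2 change after siYAP was -0.34 ± 0.11 (adjusted p = 0.044), and after siTAZ it was -0.06 ± 0.11 (adjusted p = 0.716). The siYAP call was lost without siControl 1 (-0.27), siControl 3 (-0.32), siTAZ 3 (-0.33), siYAP 1 (-0.38), siYAP 2 (-0.29) or siYAP 3 (-0.35), and with the block it was -0.33 ± 0.07 (adjusted p = 0.00276).

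In A549, AMOTL1 was at 77.0, 76.1 and 62.4 CPM in siYAP, 82.9, 80.0 and 68.8 CPM in siTAZ and 83.3, 81.9 and 68.7 CPM in siControl libraries. The library numbered 3 was the lowest in each group, and the groups overlapped. Its log2 change was -0.12 ± 0.11 after siYAP and -0.02 ± 0.11 after siTAZ (adjusted p = 1.0 each), and it passed with the block after neither. AMOTL1 lies at chr11:94706431-94876753 (plus strand), where 2 antisense genes overlap it, and since the use of strand in counting is not given in the sources used here, their reads cannot be told apart from its own.

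AMOT, the first angiomotin described and a scaffold that also binds merlin, ran the other way in H1299 without passing the test. It stood at 34.9, 32.6 and 30.7 CPM in siYAP, 34.4, 30.0 and 31.1 CPM in siTAZ and 28.96, 28.6 and 28.9 CPM in siControl libraries. All 6 knockdown libraries were above the siControl libraries, which lay close together. The log2 change was 0.18 ± 0.09 after siYAP (adjusted p = 0.177) and 0.14 ± 0.09 after siTAZ (adjusted p = 0.265). In A549, AMOT (chrX:112774503-112840815, minus strand) had 7 to 67 reads per library. Its log2 changes there, -0.02 ± 0.44 after siYAP and 0.33 ± 0.42 after siTAZ, were smaller than their SE and do not resolve a difference.

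Groups that did not overlap were common among all genes in H1299. After siYAP the libraries of 4 of the 8 genes (AMOT, AMOTL1, AMOTL2 and NUAK2) did not overlap siControl, against 36.1% of all genes, and after siTAZ those of 3 (AMOT, AMOTL2 and LIMD1), against 38.7%. In A549 this held for AMOTL2 alone after siYAP, against 7.20% of all genes, and for AMOTL2, AJUBA and NUAK2 after siTAZ, against 9.28%.

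Summed per kb of exon, the angiomotins were lower after each knockdown. In H1299 the sum was 21.99 ± 1.48 CPM per kb in siYAP, 22.8 ± 2.77 in siTAZ and 27.2 ± 1.97 in siControl cells, and in A549 it was 13.4 ± 0.41, 12.6 ± 0.36 and 16.5 ± 0.87 (SD, n = 3). Neither set of knockdown libraries overlapped the siControl libraries in either line, and the sums were not tested. AMOTL2 made up 56.5 ± 5.01% of the sum in siYAP, 53.3 ± 2.30% in siTAZ and 61.1 ± 3.04% in siControl cells of H1299, and 45.1 ± 7.11%, 37.2 ± 4.24% and 51.9 ± 2.36% in A549. AMOT made up 17.6 ± 2.34%, 16.5 ± 1.76% and 12.5 ± 0.84% in H1299 and between 1.03 and 1.68% on average in A549, where AMOTL1 made up 53.7 ± 7.56%, 61.1 ± 4.48% and 47.1 ± 2.83%.

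**Figure D4:**
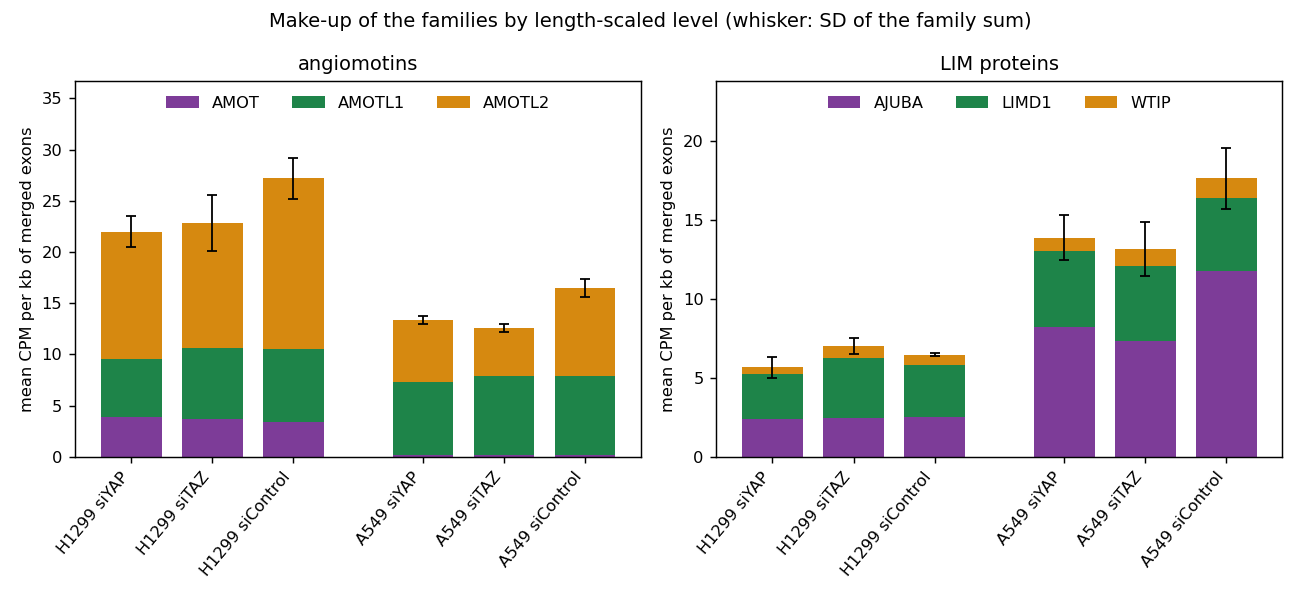
Mean level per kb of merged exons (y axis, CPM per kb) of the 3 angiomotins (left) and the 3 LIM proteins (right), stacked by gene, for each line and siRNA (x axis), with the whisker the SD of the family sum over 3 libraries. The angiomotin sum is 27.2 in H1299 and 16.5 in A549 siControl cells, and AJUBA takes the largest part of the LIM sum in A549.

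AJUBA, the LIM protein that binds LATS and the scaffold SAV1, was lower after both knockdowns in A549. Its level was 42.1, 44.7 and 60.8 CPM in siYAP, 40.1, 37.3 and 54.3 CPM in siTAZ and 70.7, 58.7 and 82.1 CPM in siControl libraries. The library numbered 3 was the highest of each group, all siTAZ libraries were below siControl, and siYAP 3 overlapped siControl. Every knockdown library was below the siControl library of its own number. With the block the log2 change was -0.49 ± 0.05 after siYAP (adjusted p = 4.62e-08) and -0.68 ± 0.05 after siTAZ (adjusted p = 5.04e-12), and without it -0.51 ± 0.19 and -0.68 ± 0.19 (adjusted p = 1.0 and 0.679).

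In H1299, AJUBA was at 16.3, 10.5 and 15.7 CPM in siYAP, 14.7, 13.6 and 16 CPM in siTAZ and 13.8, 14.9 and 17.1 CPM in siControl libraries. The 3 groups overlapped. The log2 change was -0.10 ± 0.16 after siYAP and -0.05 ± 0.16 after siTAZ (adjusted p = 0.684 and 0.847). AJUBA lies at chr14:22971174-22982642 (minus strand), where another protein-coding gene on the same strand overlaps it, so the split of reads between them is uncertain.

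WTIP, a relative of AJUBA and LIMD1 that also binds LATS kinases, was lower after siYAP in both lines when the block was fitted. In H1299 it stood at 6.17, 6.62 and 5.70 CPM in siYAP, 12.8, 8.88 and 10.6 CPM in siTAZ and 9.69, 6.44 and 10.2 CPM in siControl libraries. The library siControl 2 lay among the siYAP libraries and the other siControl libraries lay above them, so 2 of the 3 siYAP libraries were below the siControl library of their number and siYAP 2 was above it. The log2 change after siYAP was -0.51 ± 0.19 (adjusted p = 0.0750), and -0.50 ± 0.16 with the block (adjusted p = 0.0295). It also passed with DESeq2 and without siControl 2 (-0.70), while after siTAZ it was 0.29 ± 0.18 (adjusted p = 0.259).

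In A549, WTIP was at 8.21, 10.1 and 17.4 CPM in siYAP, 11.7, 11.2 and 21.2 CPM in siTAZ and 15.4, 13.7 and 21.8 CPM in siControl libraries. The libraries numbered 3 were far above the others in all 3 groups, so the groups overlapped, yet every siYAP library was below the siControl library of its number. After siYAP the log2 change was -0.49 ± 0.08 with the block (adjusted p = 0.000129) and -0.50 ± 0.33 without it (adjusted p = 1.0). After siTAZ it was -0.22 ± 0.08 with the block, which did not pass. WTIP lies at chr19:34481638-34512304 (plus strand), and no other annotated gene overlaps it.

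LIMD1, which binds LATS kinases as AJUBA does, differed between the knockdowns in H1299. It stood at 41.3, 36.5 and 30.6 CPM in siYAP, 52.2, 45.5 and 46.4 CPM in siTAZ and 42.9, 44.3 and 37.7 CPM in siControl libraries. The siTAZ libraries were above all others, and the siYAP and siControl libraries overlapped. Against siControl the log2 change was -0.21 ± 0.11 after siYAP and 0.20 ± 0.11 after siTAZ (adjusted p = 0.229 and 0.204). In A549 its libraries ran from 52.1 to 68.2 CPM across siYAP, siTAZ and siControl cells, with log2 changes of 0.05 ± 0.10 and 0.04 ± 0.10 after siYAP and siTAZ. LIMD1 lies at chr3:45555394-45686338 (plus strand), with the antisense gene LIMD1-AS1 on the other strand.

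The LIM genes together summed to 5.67 ± 0.68 CPM per kb in siYAP, 7.04 ± 0.50 in siTAZ and 6.48 ± 0.09 in siControl cells of H1299 (SD, n = 3). In A549 the sum was 13.9 ± 1.44, 13.2 ± 1.72 and 17.6 ± 1.91 CPM per kb. AJUBA made up 58.9 ± 5.88% of it in siYAP, 55.5 ± 4.05% in siTAZ and 66.5 ± 3.9% in siControl cells of A549, against 41.6 ± 6.93%, 35.1 ± 2.47% and 39.4 ± 3.73% in H1299, where LIMD1 made up 50.4 ± 6.0%, 53.8 ± 2.03% and 50.8 ± 4.81%.

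PTPN14, a cytoplasmic tyrosine phosphatase that binds YAP and retains it in the cytoplasm, was lower after siTAZ in H1299 with the block. Its level was 92.8, 104 and 83.7 CPM in siYAP, 95.3, 78.6 and 87.2 CPM in siTAZ and 112, 108 and 92.2 CPM in siControl libraries. The groups overlapped, with siControl 3 below siYAP 1 and 2 and siTAZ 1. After siTAZ the log2 change was -0.26 ± 0.11 (adjusted p = 0.0955), and -0.25 ± 0.09 with the block (adjusted p = 0.0361). After siYAP it was -0.15 ± 0.11 (adjusted p = 0.350).

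In A549, PTPN14 was at 19.3, 25.5 and 28.1 CPM in siYAP, 25.8, 20.6 and 31.8 CPM in siTAZ and 28.4, 28.0 and 32.1 CPM in siControl libraries. Each knockdown library was below the siControl library of its number, and the groups overlapped. Its log2 changes of -0.27 ± 0.17 after siYAP and -0.18 ± 0.17 after siTAZ did not pass, with or without the block. PTPN14 lies at chr1:214348696-214552449 (minus strand), and 3 other annotated genes overlap it.

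NUAK2 had its H1299 change after siYAP and its A549 change after siTAZ. In H1299 it stood at 3.06, 5.98 and 3.80 CPM in siYAP, 8.0, 7.33 and 6.86 CPM in siTAZ and 6.71, 7.98 and 6.91 CPM in siControl libraries. All siYAP libraries were below those of the other groups, which overlapped each other. After siYAP the log2 change was -0.76 ± 0.21 (adjusted p = 0.0248), a mean of 59.4% of siControl, and after siTAZ it was 0.04 ± 0.20 (adjusted p = 0.908). The siYAP call was lost without siControl 1 (-0.81), siControl 2 (-0.68), siYAP 1 (-0.58) or siYAP 3 (-0.67).

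In A549, NUAK2 was at 25.7, 25.1 and 37.4 CPM in siYAP, 22.9, 18.4 and 28.6 CPM in siTAZ and 30.0, 29.2 and 37.1 CPM in siControl libraries. The siTAZ libraries were below all siControl libraries, whereas siYAP 3 was above them and siYAP 1 and 2 below. The log2 change was -0.49 ± 0.06 after siTAZ with the block (adjusted p = 4.27e-07) and -0.46 ± 0.20 without it (adjusted p = 1.0). After siYAP it was -0.12 ± 0.20 without the block, and it did not pass with it. NUAK2 lies at chr1:205302059-205321791 (minus strand), and no other annotated gene overlaps it.

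**Figure D5:**
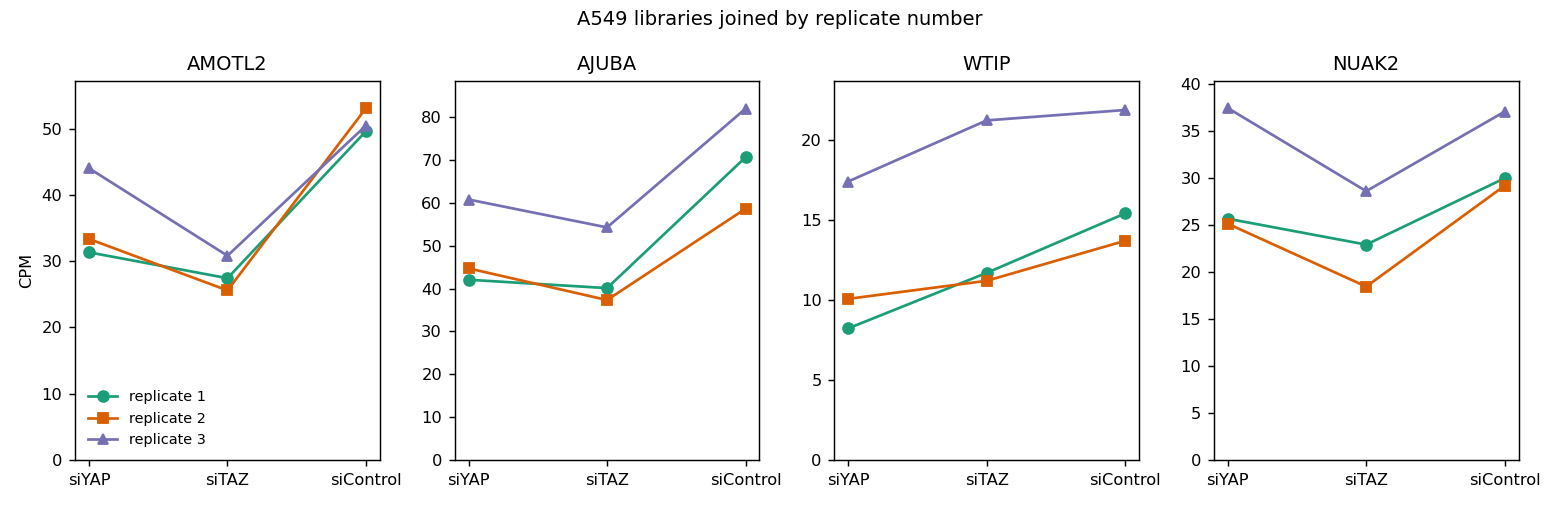
Levels in CPM (y axis) of AMOTL2, AJUBA, WTIP and NUAK2 in the A549 libraries by siRNA (x axis), with lines joining libraries of the same replicate number. The libraries numbered 3 are the highest for AJUBA, WTIP and NUAK2 in every group, and each line is lower at siTAZ than at siControl.

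The pairing shown by the lines of the A549 plot was also examined by leaving out 1 replicate number at a time from all groups, with the block kept, a setting chosen after the data were seen. AMOTL2 and AJUBA kept their calls after siYAP and after siTAZ in A549, WTIP after siYAP and NUAK2 after siTAZ, whichever number was left out. These fits called 1.01 to 4.56% of all genes after siYAP and 6.03 to 9.82% after siTAZ. After siYAP in A549, 18.5% of all genes were lower in all 3 same-numbered pairs, and after siTAZ 21.1%. In the authors' deposited table for A549, AJUBA had log2 changes of -0.52 after siYAP and -0.69 after siTAZ, WTIP of -0.53 after siYAP and NUAK2 of -0.48 after siTAZ, each with an adjusted p below 0.05. In that for H1299, AMOTL1 (-0.35) and NUAK2 (-0.77) passed after siYAP. WTIP after siYAP (-0.53, adjusted p = 0.0548) and PTPN14 after siTAZ (-0.26, adjusted p = 0.113) did not pass there. The authors' values come from the same libraries, so they are no independent check of the fits here. Whether their model held a term for batch or replicate number was not examined.

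The knockdowns were also compared with each other. In H1299, siYAP cells had less LIMD1, WTIP and NUAK2 than siTAZ cells, 3 of 8 genes, where 11.7% of all genes were called and 6.10% as lower. The log2 difference, siYAP over siTAZ, was -0.41 ± 0.11 for LIMD1 (adjusted p = 0.0313), -0.81 ± 0.18 for WTIP (adjusted p = 0.0127) and -0.79 ± 0.20 for NUAK2 (adjusted p = 0.0238). With the block, which called 21.5% of all genes and 10.5% as lower, AMOTL1 passed as well, at -0.27 ± 0.07 (adjusted p = 0.0106, against -0.28 ± 0.11 and 0.109 without it). AMOTL2 had a difference of 0.03 ± 0.13 (adjusted p = 0.915). The siYAP and siTAZ libraries did not overlap for AMOTL1, LIMD1, WTIP and NUAK2, against 29.6% of all genes.

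With 1 library left out the LIMD1, WTIP and NUAK2 differences kept their direction, but not every call. The share of all genes called was 6.95% without siTAZ 1, 5.79% without siTAZ 3, 7.44% without siYAP 1 and 5.35% without siYAP 3. The LIMD1 call was lost without siTAZ 1 (-0.36), siTAZ 3 (-0.45), siYAP 2 (-0.43) or siYAP 3 (-0.31), the WTIP call without siTAZ 1 (-0.67) or siYAP 3 (-0.76), and the NUAK2 call without siTAZ 1 (-0.74), siYAP 1 (-0.61) or siYAP 3 (-0.73). AMOTL1 passed without the block when siTAZ 2 was left out (-0.38). That library kept the most WWTR1 of the H1299 siTAZ libraries, and no call between siYAP and siTAZ was lost without it.

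In A549, 0 of the 8 genes differed between siYAP and siTAZ without the block, where 0.0125% of all genes were called. At an unadjusted p below 0.05, 1 of the 8 passed, against 558 of all 16008 genes. DESeq2 called 0, against 0.119% of all genes. With the block, which called 2.52% of all genes as higher and 4.52% as lower, 7.04% in all, 4 of the 8 passed. AMOTL2 was higher in siYAP than in siTAZ cells by 0.37 ± 0.07 on the log2 scale (adjusted p = 0.000217), NUAK2 by 0.34 ± 0.06 (adjusted p = 0.000303) and AJUBA by 0.19 ± 0.05 (adjusted p = 0.0263), and WTIP was lower, at -0.27 ± 0.08 (adjusted p = 0.0418). The libraries of AMOTL2 alone did not overlap, against 8.24% of all genes.

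Whether a knockdown acted differently in the lines was tested as an interaction in the joint fit. Without the block 0 of the 8 genes passed for siYAP or for siTAZ, where 0.0822% and 0.379% of all genes were called. These shares are 13 genes for siYAP and 60 for siTAZ, and 0 to 130 and 1 to 254 with 1 library left out. An unadjusted p below 0.05 was held by 0 and 1 of the 8, against 1708 and 2376 of all 15816 genes. DESeq2 called 0 of the 8 in each, against 0.822% and 1.99% of all genes. With the block, which called 10.8% of all genes for siYAP (6.07% as lower in H1299) and 17.7% for siTAZ (7.33% as higher in H1299), NUAK2 passed for siYAP and AMOTL2, AJUBA, WTIP and NUAK2 for siTAZ. The AJUBA change after siTAZ, H1299 minus A549, differed by 0.63 ± 0.13 (adjusted p = 0.00332), beside changes of -0.05 in H1299 and -0.68 in A549 in the fits of each line. NUAK2 differed in opposite directions, by -0.62 ± 0.18 for siYAP and 0.51 ± 0.17 for siTAZ (adjusted p = 0.0306 and 0.0424).

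Other genes of the pathway were read from the same fits, by lists chosen by function, and without the block none of these lists had a call in A549. Over all genes in H1299, 16.6% were called after siYAP (8.75% lower) and 23.3% after siTAZ (12.4% lower). With the block this was 28.3% and 35.5% in H1299, and 5.68% (3.17% lower) and 13.3% (6.12% lower) in A549. Some list counts were near these shares, and no list was tested as a set. Of 14 genes of the Hippo kinase core, siYAP in H1299 lowered 3, with log2 changes of -0.50 ± 0.12 for FRMD6, which recruits the pathway to the membrane, -0.38 ± 0.10 for WWC2 and -0.31 ± 0.09 for SAV1, the scaffold of the kinases, and raised none. siTAZ lowered FRMD6 (-0.59 ± 0.12) and STK4, which encodes the kinase MST1 (-0.40 ± 0.09). With the block, 4 of the 14 were lower after siYAP in A549, among them WWC1 (-0.24 ± 0.05), LATS2 (-0.24 ± 0.07) and FRMD6 (-0.28 ± 0.07), and 3 were lower and 1 higher after siTAZ. The medians of this list were -0.15 and -0.07 after siYAP and siTAZ in H1299, and -0.09 and -0.08 in A549 with the block.

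Of 12 genes listed as partners of angiomotins at junctions, 11 were tested in H1299. Among these NF2, which encodes merlin, had the largest changes in H1299. It fell by 0.94 ± 0.14 on the log2 scale after siYAP and by 1.16 ± 0.14 after siTAZ in H1299, where siYAP also lowered LIN7C (-0.67 ± 0.12) and both raised MAGI1 (0.40 ± 0.11 and 0.50 ± 0.11), and siTAZ raised LIN7A (0.71 ± 0.19). In all, 1 was higher and 2 lower after siYAP, and 2 higher and 1 lower after siTAZ. In A549 with the block the Crumbs complex gene LIN7A was the 1 call of the 12 after either knockdown, higher by 0.29 ± 0.07 after siYAP and by 0.32 ± 0.07 after siTAZ. Of 7 genes that control angiomotin turnover, the ubiquitin ligase NEDD4 fell after siYAP (-0.65 ± 0.11) and siTAZ (-0.38 ± 0.11) in H1299, and with the block also in A549 (-0.21 ± 0.04 and -0.19 ± 0.04), where siTAZ lowered NEDD4L too (-0.15 ± 0.05). In H1299 siTAZ raised the ligase RNF146 (0.39 ± 0.11) and the deubiquitinase USP9X (0.29 ± 0.09), and without the block no other gene of the 7 passed there.

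Of the 5 paralogs of these genes, zyxin-family members included, siYAP in H1299 changed none, while siTAZ raised NUAK1, the closest relative of NUAK2, by 0.52 ± 0.11 (adjusted p = 0.00588). In A549 none of the 5 passed with or without the block. Of 11 genes around NUAK2 and myosin, 1 was lower after siYAP in H1299, the LKB1 cofactor CAB39 (-0.34 ± 0.07), and 1 higher after siTAZ, STRADB (0.37 ± 0.11). With the block, 2 of the 11 were lower after siYAP in A549, CAB39 (-0.20 ± 0.04) and the kinase gene ROCK1 (-0.18 ± 0.05), and 3 after siTAZ, ROCK1 (-0.19 ± 0.05), ROCK2 (-0.17 ± 0.04) and MYL12A (-0.12 ± 0.04).

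Of the TEAD factors and VGLL4, which competes with YAP for them, 2 of 5 were lower after siYAP in H1299, TEAD1 (-0.49 ± 0.12) and TEAD4 (-0.40 ± 0.10). After siTAZ in H1299 TEAD4 was lower (-0.53 ± 0.10) and VGLL4 (0.70 ± 0.13) and TEAD3 (0.40 ± 0.11) were higher. With the block in A549, TEAD1 (-0.18 ± 0.04) and TEAD4 (-0.31 ± 0.07) were lower after siYAP, and TEAD1 (-0.31 ± 0.04) was lower and VGLL4 (0.23 ± 0.06) higher after siTAZ.

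For scale, a list of 8 known YAP and TAZ targets, LATS2 among them, had 3 of 7 tested genes lower after siYAP and 2 of 7 after siTAZ in H1299, and with the block 4 and 5 of 8 in A549, none higher. In it CYR61 fell by 1.38 ± 0.23 after siYAP and by 1.65 ± 0.23 after siTAZ in H1299, and CTGF by 0.75 ± 0.13 and 1.33 ± 0.13. With the block in A549, CYR61 fell by 0.51 ± 0.08 after siYAP and by 1.03 ± 0.08 after siTAZ, and ANKRD1, a muscle and stress response gene, by 1.62 ± 0.11 after siTAZ. In H1299 the block moved several of these list counts: the kinase core to 5 lower after siYAP and 3 after siTAZ, the junction list to 3 higher after siYAP and 3 lower after siTAZ, the angiomotin turnover list to 3 higher after siTAZ, and the NUAK2 list to 2 higher and 3 lower after siYAP and 2 higher after siTAZ. It also made TRIP6 the 1 lower gene of the paralogs after siTAZ (-0.22 ± 0.07).

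For the genes called without the block in a knockdown against siControl, those with the most similar pattern were sought among 9882 genes that averaged 5 CPM or more in both lines. Likeness was the mean absolute difference of log2 CPM, centred on the mean of each line, over 18 libraries. KRT80, which encodes a keratin, and MYOF, which encodes the membrane repair protein myoferlin, lay nearest to AMOTL2, at 0.16 and 0.17, where the median gene lay at 0.31. FUBP1 and QSER1 lay nearest to AMOTL1, at 0.05 and 0.06, against a median of 0.18. INPP4B, a phosphoinositide phosphatase gene, and PLK2, a polo-like kinase gene, lay nearest to NUAK2, at 0.15 and 0.16, against a median of 0.33.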

How the data were processed

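Gene counts were measured by poly(A) RNA-seq, with groups and replicate numbers taken from the sample titles. The submitters' processing notes name cutadapt, STAR 2.4.2a, DESeq2 and the build GRCh38. How reads were assigned to genes, and whether strand was used, is not given in the sources used here. Each line has 1 table of raw counts by gene symbol, as deposited by the authors. Its normalized counts, a signal that the authors deposited beside them, equal the raw count times 1 constant per library. The authors' log2 fold changes and adjusted p-values stand in the same deposited tables, and the log2 values of single A549 libraries there, not used here, are named as batch-adjusted, per the file headers.

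Only the raw counts were tested. Each line was fitted over its 9 libraries with edgeR 4.0.16 in R 4.3.3 (filterByExpr by group, TMM, quasi-likelihood F test, two-sided), over 15775 genes in H1299 and 16008 in A549. A joint fit of 18 libraries over 15816 genes tested differences between lines. Benjamini-Hochberg adjustment ran over every gene tested, an adjusted p below 0.05 was called, and SE is the log2 change over the root of F. CPM counts reads assigned to tested genes. Positions, exon lengths and overlaps are from GENCODE 29 (GRCh38), which held 97.9% of the symbols of each table. The script was tested on simulated counts, for the fit without the block only. For siYAP against siControl, a simulated fold of 1.5 was called for 41 of 50 genes in H1299 and 20 of 50 in A549. A fold of 0.667 was called for 40 and 20 of 50. In the siYAP interaction, folds of 1.5 and 0.667 were called for 12 and 5 of 50 genes, so changes of this size were often missed there and in A549.

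Deviations of log CPM from group means correlated between same-numbered libraries at 0.108 to 0.383 in H1299 and 0.384 to 0.729 in A549, every such pair above 0.1. Between libraries of different numbers the correlation was -0.324 to 0.160 in H1299 and -0.550 to 0.279 in A549. The ranges were apart in A549 but overlapped in H1299, where the medians were 0.221 for the same number and -0.135 for different numbers. Pairing by number is thus less clear in H1299. The labels do not say what the number stands for, although sample descriptions share a letter or prefix by number. Fits with this block are given where they change a call or a count. Chi-square per degree of freedom between replicates was 5.97 or more, so none were copies.

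The genes and lists were chosen with earlier results of these data known. Named were the 8 genes, the targeted genes, up to 3 called genes per list and comparison with the smallest adjusted p, and the 2 most similar genes for each of the 8 called in a knockdown. Alternatives were the block, DESeq2 1.42.0, its size factors, no low-count filter, and leaving out each library or all libraries numbered 3. Protein sequences were not analysed here.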

Additional observations from a re-analysis of the deposited data

Results flagged for a closer look

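The interaction test with the replicate block called 10.8% of all genes for siYAP and 17.7% for siTAZ. Of the 8 genes it called 1 for siYAP, near the share of all genes, and 4 for siTAZ. These 5 differences between the lines are given as H1299 minus A549 (log2, ± SE). For siYAP this was NUAK2, at -0.62 ± 0.18 (adjusted p = 0.0306), which was lower in 3 of 3 same-numbered pairs in H1299 and in 2 of 3 in A549. For siTAZ it was AJUBA at 0.63 ± 0.13 (adjusted p = 0.00332), AMOTL2 at 0.43 ± 0.14 (0.435 before rounding, adjusted p = 0.0307), WTIP at 0.52 ± 0.18 (adjusted p = 0.0470) and NUAK2 at 0.51 ± 0.17 (adjusted p = 0.0424). AMOTL2 was lower after siTAZ in 3 of 3 pairs in each line, so its lines differed in size and not in direction. Without the block none of the 5 passed, with adjusted p of 0.469 for NUAK2 after siYAP and, after siTAZ, 0.279 for AJUBA, 0.336 for AMOTL2, 0.610 for WTIP and 0.463 for NUAK2. The line, its medium and its experiment cannot be told apart in these differences, and the libraries numbered 3 stood apart in A549.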

How the results depend on the processing

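The number of the 8 genes called was 3, 1 and 3 in H1299 for siYAP, siTAZ and siYAP against siTAZ, 0 for each in A549, 0 for both interactions and 8 between the lines. With the replicate block, which pairs libraries by number, it was 2 for siTAZ in H1299, 3 for siYAP, 3 for siTAZ and 4 for siYAP against siTAZ in A549, and 1 and 4 for the siYAP and siTAZ interactions. It changed no other count by over 1.5 times. DESeq2 called 1 for siTAZ in A549 (AMOTL2), where it called 0.325% of all genes. Without all libraries numbered 3 and with no block, all 3 H1299 counts were 0 and siTAZ in A549 was 1, where 4 of all genes were called. The block was also fitted without the libraries numbered 1, 2 and 3 in turn, a setting added after the data were seen. In H1299 the counts were 0, 5 and 1 for siYAP, 1, 2 and 1 for siTAZ and 2, 4 and 1 for siYAP against siTAZ. Over all genes these fits called 8.17, 37.5 and 11.7%, then 15.9, 42.1 and 15.5%, then 9.54, 28.8 and 8.34%. In A549 the counts were 3, 4 and 3, then 3, 3 and 5, then 3, 2 and 2. Over all genes the A549 fits called 1.94, 1.01 and 4.56%, then 7.47, 6.03 and 9.82%, then 3.87, 1.85 and 4.33%. Leaving out 1 library gave 0 to 3 for siYAP, 0 to 1 for siTAZ and 0 to 4 for siYAP against siTAZ in H1299, and 0 to 1 for siTAZ in A549. Over all genes these fits called 1124 to 3076, 1715 to 4301 and 856 to 2102 in H1299, and 1 to 2 for siTAZ in A549. DESeq2 size factors and no low-count filter left every count within 1.5 times and all 54 single-gene results on their side of the threshold. Over all genes, without all libraries numbered 3, the genes called in H1299 were 34 for siYAP, 144 for siTAZ and 190 for siYAP against siTAZ, against 2625, 3680 and 1846 with them. The cause of these shifts was not tested, beyond the fewer libraries in the fits that leave some out. Of the 54, 12 changed sign under some setting, none of them called without the block. With it, AJUBA (0.19) and WTIP (-0.27) between siYAP and siTAZ in A549 were called. With 1 library left out, AJUBA ran from -0.23 to 0.070 after siYAP and from -0.11 to 0.037 after siTAZ in H1299, AMOTL1 from -0.15 to 0.037 and NUAK2 from -0.022 to 0.12 after siTAZ in H1299, and AMOTL2 from -0.094 to 0.14 between siYAP and siTAZ in H1299. In A549, AMOT ran from -0.28 to 0.21 and LIMD1 from -0.043 to 0.13 after siYAP, AMOTL1 from -0.10 to 0.056, LIMD1 from -0.027 to 0.080 and WTIP from -0.56 to 0.022 after siTAZ, and between siYAP and siTAZ AJUBA from -0.022 to 0.35 and WTIP from -0.67 to 0.064. With the block, signs changed in H1299 without the libraries numbered 2 for AJUBA after siYAP (0.057) and AMOTL2 between siYAP and siTAZ (-0.16) and without those numbered 1 for NUAK2 after siTAZ (-0.066), and in A549 without those numbered 1 for LIMD1 after siYAP (-0.020). AMOT in A549 had few reads, 7 to 67 per library.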
